A study of Mus musculus with 34 samples.

Results

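H3K4me3 was compared between the column pairs Control_4h and Control_D0 at all 10702 promoter peaks of the deposited table, which uses 4 of its 12 H3K4me3 libraries, in a series of 34 samples. The cells are mouse 3T3-L1, a fibroblast-like line of preadipocytes that turns into fat-storing adipocytes when it is given hormones after it has stopped growing. The column names may be out of order, so each result has a pair of readings. As named, Control_4h is chromatin of cells with a control hairpin against luciferase (shLuc) 4 hours after induction, and Control_D0 is shLuc chromatin at day 0, taken 2 days after confluence and before induction. If the columns instead alternate shLuc and knockdown at each time, Control_4h is chromatin of cells with hairpins against Kdm5a, Kdm5b and Kdm5c (shKdm5ABC) at day 0, and Control_D0 is again shLuc at day 0. In every group compared, cells had been transduced with lentivirus 4 days before induction, for 24 hours with polybrene at 6 µg/mL. The inducing medium held dexamethasone, insulin, isobutylmethylxanthine (IBMX) and serum, and day 0 cells had not yet received it. Each pair has 2 libraries, numbered as experiments in the sample titles. Whether these are separate cultures is not stated, so each p measures the spread between these libraries, which may be technical.

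Trimethylation of lysine 4 on histone H3 marks the start sites of genes that are transcribed or poised. SET1 and MLL complexes add the methyl groups, and the KDM5 family (KDM5A, KDM5B, KDM5C) removes them, so this family is often studied as a limit on how far the mark spreads and how high it rises. In 3T3-L1 cells, dexamethasone acts through the glucocorticoid receptor and IBMX raises cAMP, and together they set off the early transcription factors of adipocyte differentiation. Under the names as deposited the comparison asks what the first hours of that programme do to the promoter mark. Under the alternating order it asks what loss of KDM5 does in cells that are not yet induced.

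The difference between the pairs lay almost wholly in 1 direction. H3K4me3 was higher in Control_4h than in Control_D0 at 9832 of 10702 peaks, and the median difference was 0.28 on the log2(tags + 1) scale, or 1.21-fold. Of these peaks, 2980 rose past the test (27.8% of those tested) and 1 fell (0.00934%), the promoter of Rtp4, an interferon-induced chaperone of receptors. The highest differences included the promoters of Lsp1, which encodes a protein that binds actin in leukocytes, Spon2, a secreted matrix protein, and Igfbp6, which binds insulin-like growth factor II. Tags are reads in a peak, scaled by the authors to a common library total. A peak was called when its adjusted p was under 0.05 in limma's moderated test, fitted over all 12 libraries with Benjamini-Hochberg adjustment over all peaks. That fit holds no term for the replicate number.

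Sequences around the start site are shown for promoters with high differences and for others with a difference below 0. The first 3 are the highest of the called genes that have a single entry in the RefSeq promoter table. The other 2 are interferon-induced genes, neither of them called, added after their values were seen. At Ifit3 the pairs overlapped, with 223 and 136 tags in Control_4h against 229 and 198 in Control_D0 (limma adjusted p = 0.626). Each runs from 250 bases before to 50 after the start (RefSeq, GRCm38.p6, while the peak table uses mm9). Capitals mark matches, on either strand, to TATAAA in the promoters of Mgst2 and Igfbp6, to GGGCGG (the GC box) in that of Mt1 and to the core of the interferon response element (GAAA, any 2 bases, GAAA) in those of Ifit1 and Ifit3.
Mgst2, chr3:51660929-51661228, + strand: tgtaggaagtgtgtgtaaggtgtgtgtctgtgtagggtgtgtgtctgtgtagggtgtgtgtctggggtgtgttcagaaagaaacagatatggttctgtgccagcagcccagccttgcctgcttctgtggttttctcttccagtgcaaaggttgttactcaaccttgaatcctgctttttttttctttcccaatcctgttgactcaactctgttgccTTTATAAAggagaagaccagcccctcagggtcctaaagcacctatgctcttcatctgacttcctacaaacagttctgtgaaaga
Igfbp6, chr15:102143936-102144235, + strand: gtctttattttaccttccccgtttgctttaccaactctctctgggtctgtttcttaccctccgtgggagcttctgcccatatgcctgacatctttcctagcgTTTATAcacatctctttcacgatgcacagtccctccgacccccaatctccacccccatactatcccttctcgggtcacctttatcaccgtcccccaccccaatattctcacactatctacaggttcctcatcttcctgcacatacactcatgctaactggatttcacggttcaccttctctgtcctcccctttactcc
Mt1, chr8:94178839-94179138, + strand: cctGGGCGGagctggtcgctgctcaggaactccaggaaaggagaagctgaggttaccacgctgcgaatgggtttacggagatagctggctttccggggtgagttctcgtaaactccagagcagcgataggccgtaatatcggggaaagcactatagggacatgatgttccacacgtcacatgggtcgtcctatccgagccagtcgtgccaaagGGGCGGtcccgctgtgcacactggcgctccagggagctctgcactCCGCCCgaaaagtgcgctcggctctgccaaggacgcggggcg
Ifit1, chr19:34640639-34640938, + strand: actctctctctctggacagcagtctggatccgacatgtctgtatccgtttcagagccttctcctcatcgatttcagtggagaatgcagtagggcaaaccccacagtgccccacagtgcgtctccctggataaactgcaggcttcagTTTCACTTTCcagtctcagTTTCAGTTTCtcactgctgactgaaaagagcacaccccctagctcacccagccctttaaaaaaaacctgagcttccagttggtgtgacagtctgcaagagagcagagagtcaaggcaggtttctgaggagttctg
Ifit3, chr19:34583279-34583578, + strand: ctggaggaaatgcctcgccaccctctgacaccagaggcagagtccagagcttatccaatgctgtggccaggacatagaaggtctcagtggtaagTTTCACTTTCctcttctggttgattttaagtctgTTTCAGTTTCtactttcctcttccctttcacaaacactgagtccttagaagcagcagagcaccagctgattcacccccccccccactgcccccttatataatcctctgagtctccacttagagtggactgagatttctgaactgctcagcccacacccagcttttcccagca
Mgst2, a microsomal glutathione transferase, has a promoter with 0 CpG in these 300 bases, and its 2 TATAAA matches overlap on opposite strands. The promoter of Igfbp6 holds 8 CpG and that of Mt1, a metallothionein induced by metals and glucocorticoids, holds 24. The promoters of Ifit1 and Ifit3, both encoding proteins that bind viral RNA, hold 4 and 1. The median was 22 CpG over the 6465 genes with 1 peak and 1 promoter entry, 20 over the 1675 of these genes called higher and 16.5 over the 240 called higher also after each library was centred on its median.

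Share of tags in peaks moved with the result. Control_4h libraries had 80.5% and 81.3% of their scaled tags in the promoter peaks, and Control_D0 libraries had 66.9% and 65.6%. The pairs did not overlap, and the mean was 80.9% ± 0.564 in Control_4h against 66.2% ± 0.910 in Control_D0 (SD, n = 2 each, exact permutation p = 0.333, two-sided, the smallest that 2 against 2 allows). A median peak held 675 and 685 tags in Control_4h and 565 and 564 tags in Control_D0. Across the table the share alternated with the order of the pairs: KDM5_KD_D0 (83.2% and 80.7%) and KDM5_KD_D2 (80.0% and 78.8%) were high, while Control_D2 (67.0% and 66.9%) and KDM5_KD_4h (68.1% and 66.2%) were low. Recovered library totals were 8976064 and 8596076 reads for Control_4h, 8641350 and 11515810 for Control_D0 and 8374548 to 13588720 over all 12 libraries, if the common total is 10000000. Whether the share reflects the cells or the immunoprecipitation was not tested.

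**Figure D1:**
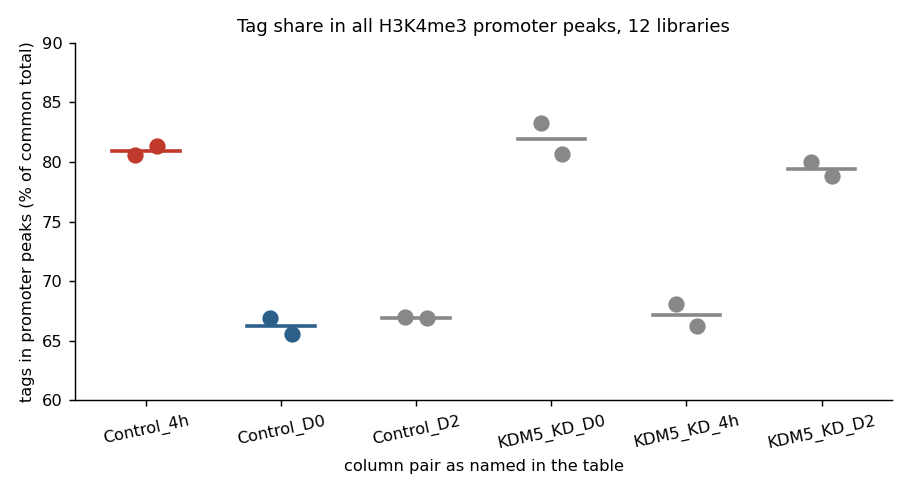
Share of scaled tags in the 10702 promoter peaks (y axis, percent of a common total of 10000000, axis from 60) for the 2 libraries (points) and their mean (line) of each column pair as named. Control_4h sits at 80.5% and 81.3% and Control_D0 at 66.9% and 65.6%, and the remaining pairs fall at either of these levels.

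Because that share enters every tag value, the comparison was repeated with each library centred on its own median. The median difference was then 0.012, and 512 peaks were higher (4.78%) and 13 lower (0.121%). All 512 were also called without centring. Same-numbered libraries deviated together (r = 0.75 across peaks for the compared pairs), and with the replicate number as a block 6331 peaks were higher (59.2%) and 19 lower (0.178%), or 2414 (22.6%) and 1373 (12.8%) after centring. The count was 847 higher without Control_D0_1, 1428 without Control_4h_2, and 274 when only the 4 compared libraries entered the fit. Control_4h and Control_D0 did not overlap at 6489 peaks with higher tags (60.6%) and at 62 with lower tags (0.579%). A difference of 1 or more, a doubling on this scale, was seen at 1077 peaks, of which 838 were called.

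The differences ran from -1.52 to 3.91, and the highest value belonged to a peak with under 20 tags on average. The 10 highest called peaks with a mean of at least 20 tags over the 4 libraries are described here. Several passed that minimum only through Control_4h, so low tags in Control_D0 follow in part from how they were chosen. Lsp1 (mm9 chr7:149656495-149665572) had 1222 and 777 tags in Control_4h and 83.3 and 75.6 tags in Control_D0, a difference of 3.60 (SE 0.30, limma adjusted p = 4.61e-04). Gas7, which shapes the actin of growing cell processes, had 917 and 613 tags in Control_4h against 72.9 and 55.6 in Control_D0. Both Control_4h libraries stood far above both Control_D0 libraries at these promoters. Aoc3, an amine oxidase abundant on adipocytes, had 349 and 408 tags in Control_4h and 44.0 and 29.5 in Control_D0, a difference of 3.35 (SE 0.32, adjusted p = 7.47e-04). Spon2 had 588 and 726 tags in Control_4h against 62.5 and 74.7 in Control_D0, and its difference of 3.24 had the smallest adjusted p of these peaks (6.11e-05). Igfbp6 had 309 and 276 tags in Control_4h against 34.7 and 36.5 in Control_D0, a difference of 3.00. At each of these 5 promoters the call held with each library left out and after centring.

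Promoters with still fewer tags in Control_D0 complete these 10. Mgst2 had 115 and 74.5 tags in Control_4h and 6.94 and 13.9 in Control_D0. Masp1, a protease of the complement system, had 53.5 and 23.3 tags in Control_4h and 2.31 and 5.21 in Control_D0 at a 500 bp peak, a difference of 3.00. A stronger Masp1 peak had 322 and 247 tags in Control_4h against 122 and 105 in Control_D0, a difference of 1.31. Mrvi1, which takes part in nitric oxide signalling in smooth muscle, had 85.8 and 68.6 tags in Control_4h against 8.10 and 10.4 in Control_D0. Mt1 had 54.6 and 34.9 tags in Control_4h and 2.31 and 9.55 in Control_D0, at a peak centred 1078 bp upstream of its start site and thus outside the printed window. A stronger Mt1 peak, on the other side of the start site, had 1745 and 1162 tags in Control_4h against 1361 and 1038 in Control_D0. Xpnpep2, an aminopeptidase, had 138.2 and 116.3 tags in Control_4h and 12.73 and 19.97 in Control_D0. Below, Mt1 and Masp1 stand for their weaker peaks. The differences of these 5 peaks ran from 2.91 to 3.10. The call at Mt1 held in 2 of 4 fits with a library left out, and that at Masp1 in 3 of 4 fits.

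Rtp4 (mm9 chr16:23609550-23612615) was the only promoter past the test in the other direction. It had 623 and 497 tags in Control_4h and 927 and 761 tags in Control_D0, a difference of -0.59 (SE 0.18, limma adjusted p = 0.0389, and 0.0334 after centring). The pairs did not overlap, yet the call held in only 1 of 4 fits with a library left out, where the adjusted p ran from 0.0427 to 0.223.

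**Figure D2:**
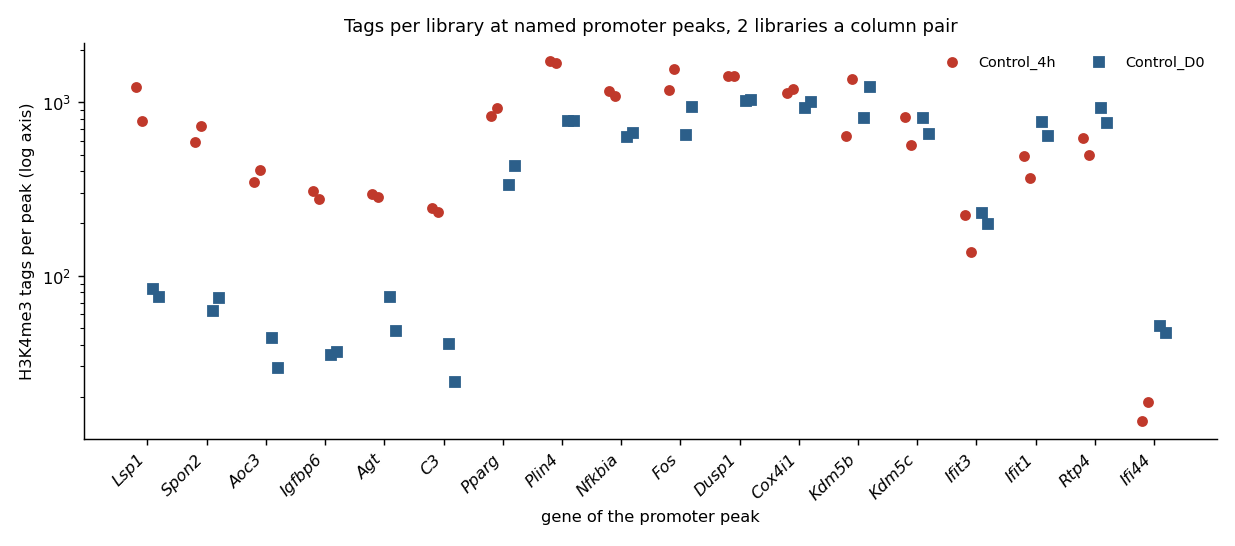
Scaled H3K4me3 tags per peak (log axis) in each of the 2 Control_4h libraries (red circles) and 2 Control_D0 libraries (blue squares) at named promoter peaks. Lsp1 has 1222 and 777 tags in Control_4h against 83.3 and 75.6 in Control_D0, Kdm5b and Kdm5c overlap between the pairs, and Rtp4 and Ifi44 are lower in Control_4h.

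By group median, differences on the log2 scale were largest among weak peaks and among peaks with little KDM5A. Peaks were split into 4 groups of equal size by their KDM5A ChIP tags at day 0, measured in cells for which no transduction is stated. The median difference was 0.76 in the group with the fewest KDM5A tags, then 0.27 and 0.22, and 0.19 in the group with the most. The share of peaks called higher followed, at 45.5%, 23.9%, 21.5% and 20.5%. Counted in tags, the median gain was smallest in the first group, at 88.1 against 112, 109 and 110. The median SE of the log2 difference was 0.27 in the first group and 0.13 in the last. Per kilobase of peak the medians were 0.73, 0.30, 0.23 and 0.16. The 385 H3K4me3 peaks without any KDM5A peak had a median difference of 1.22, with 47.8% called higher, against 0.27 and 27.1% for the 10317 peaks with one.

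H3K4me3 level moved with KDM5A tags. In 4 groups by mean tags in the other 8 libraries, the median differences from the lowest group to the highest were 0.74, 0.26, 0.21 and 0.22. The median gain in tags rose instead, at 71.9, 92.3, 113 and 170. Within each of these level groups, peaks at or below the median of KDM5A tags per kilobase had the higher difference, at 1.11 against 0.42 in the lowest group and 0.27 against 0.17 in the highest. Peak width gave a flatter picture, with medians of 0.35, 0.25, 0.24 and 0.31 from narrow to wide. The shares called higher were 28.2%, 22.7%, 24.2% and 36.3% in that order. Peaks farthest from the start site had a median of 0.37, and the 3 nearer groups ran from 0.24 to 0.26. These splits describe the peaks, which share libraries and depth, and no test was made of them. The pseudocount of 1 tag shrinks the differences of the weakest peaks.

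**Figure D3:**
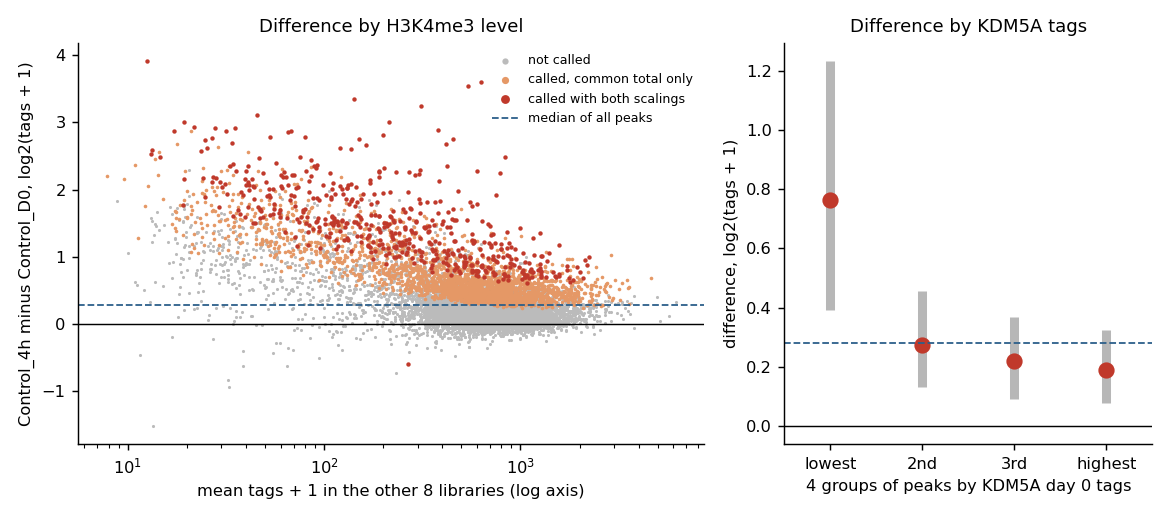
Left, the Control_4h minus Control_D0 difference of each of 10702 peaks (y axis, log2(tags + 1)) against its mean tags plus 1 in the other 8 libraries (log axis), coloured by call; the dashed line is the median, 0.28. Right, median (point) and 25th to 75th percentile (bar) of the difference in 4 groups by KDM5A day 0 tags, which run 0.76, 0.27, 0.22 and 0.19.

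Calls were spread unevenly over the genome. On chromosome X 53 of 353 peaks were called higher, the lowest share of any chromosome, and on chromosome 19 157 of 385 peaks (40.8%), the highest, where 27.8% of all peaks were. Of the peaks farthest from the start site 38.0% were called, against 23.1% to 25.8% in the 3 nearer groups. GGGCGG stood in the 300 bases around the start of 69.3% of called genes and of 69.5% of all 6465 matched genes. TATAAA stood in 6.69% of called genes, 10.4% of those also called after centring and 6.57% of all matched genes. The interferon response core was found in 2.93% of called genes and 2.94% of all matched genes, and the glucocorticoid response element (AGAACA, any 3 bases, TGT) in 0.537% and 0.232%. CACGTG (the E-box) stood in 9.85% and 10.5%, and TGACGTCA (the cAMP response element) in 3.58% and 3.73%, called genes first. Of all 32851 RefSeq promoters of this length, 35.7% hold GGGCGG and 13.6% hold TATAAA. Both strands were searched, and these are letter matches without evidence of binding.

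The KDM5 genes and the enzymes that write the mark came first among the gene groups. Kdm5b had 639 and 1355 tags in Control_4h against 809 and 1221 in Control_D0, with the replicates farther apart than the pairs. Kdm5c, which lies on the X chromosome, had 826 and 564 tags in Control_4h against 811 and 656 in Control_D0. Neither passed the test (adjusted p = 0.897 and 0.784), and no promoter peak was matched to Kdm5a. With the replicate block and centring both fell, by 0.36 each (limma adjusted p = 0.0212 for Kdm5b and 0.0039 for Kdm5c), where 12.8% of all peaks fell. Without centring the differences were -0.094 and -0.096, and the pairs overlapped at both promoters. Of 21 genes for H3K4 writers and other erasers, 5 rose (23.8%, near the 27.8% of all peaks), among them Kmt2b, a methyltransferase of H3K4, with 1053 and 1430 tags in Control_4h against 738 and 900.5 in Control_D0, a call that held in 2 of 4 fits with a library left out. In RNA, which was measured under its own column names, Kdm5a, Kdm5b and Kdm5c were lower by 0.98, 0.72 and 1.40 in shKdm5ABC than in shLuc cells at day 0 (limma adjusted p = 0.00714, 0.0101 and 0.00629). In shLuc cells at 4 hours against day 0, the RNA difference of Kdm5b was -0.73 (adjusted p = 3.64e-04).

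Genes that answer the inducing hormones had more calls than the 27.8% of all peaks. Of 18 immediate-early transcription factors 8 rose, of 13 cAMP response genes 7 and of 17 glucocorticoid targets 9, and their median differences were 0.55, 0.47 and 0.38. No member of these lists fell, where 0.00934% of all peaks did. Their median peak widths were 5370, 4384 and 5010 bp, within the widest of the 4 width groups, where 36.3% of peaks rose. The part of width in these counts was not tested. Fos, a subunit of the AP-1 factor, had 1171 and 1562 tags in Control_4h against 647 and 943 in Control_D0. Nfkbia, an inhibitor of NF-kB that glucocorticoids induce, had 1156 and 1087 tags in Control_4h against 634 and 663 in Control_D0 (difference 0.79, SE 0.095, limma adjusted p = 0.00138). Dusp1, which takes phosphate off MAP kinases, had 1418 and 1422 tags in Control_4h against 1024 and 1032 in Control_D0, a difference of 0.47. At all 3 promoters each Control_4h library was above each Control_D0 library, as at 60.6% of all peaks. With a library left out, Nfkbia stayed called in 4 of 4 fits, Fos in 2 and Dusp1 in 1. After centring, 1, 0 and 2 members of the 3 lists were called higher, where 4.78% of all peaks were.

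RNA of the same lists behaved differently in the comparisons that correspond to the readings. In shLuc cells at 4 hours against day 0, RNA rose for 8 of 18 immediate-early, 10 of 13 cAMP and 15 of 17 glucocorticoid genes, where 20.7% of all 13534 transcripts tested rose. In shKdm5ABC against shLuc cells at day 0, RNA of none of them rose or fell by limma, where 0.606% of transcripts rose and 0.901% fell. Both RNA comparisons share the shLuc day 0 libraries. In bulk samples, a change in the share of cells that express a gene and a change of RNA per cell cannot be told apart.

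Genes of the adipocyte were called more often than the 27.8% of all peaks. Median peak widths were 4149.5 bp for adipogenic factors and 4363 bp for adipocyte genes. Both lay within the widest width group, where 36.3% of peaks rose. Of 22 adipogenic factors 12 rose, with a median difference of 0.46 and no member below 0, where 91.9% of all peaks were above 0. After centring 7 of them were still called, where 4.78% of all peaks rose. Pparg, the nuclear receptor that drives adipocyte differentiation, had 838 and 933 tags in Control_4h against 332 and 430 in Control_D0 (difference 1.22, SE 0.16, limma adjusted p = 0.00186). Rxra, its dimer partner, had 2143 and 2287 tags in Control_4h against 1285 and 1303 in Control_D0, and Ebf2, which marks committed preadipocytes, had 703 and 753 against 415 and 422. Of 19 adipocyte genes 10 rose, 4 of them also after centring, and 2 were below 0. The lowest of these was Plin1, another coat protein of lipid droplets, with 5.57 and 4.65 tags in Control_4h against 8.10 and 8.68 in Control_D0 (difference -0.62, limma adjusted p = 0.25). Plin4, a coat protein of lipid droplets, had 1738 and 1678 tags in Control_4h against 778 and 781 in Control_D0, with the smallest adjusted p of its list (3.31e-04). Agt, angiotensinogen, had 297 and 284 tags in Control_4h against 75.2 and 47.8 in Control_D0, and Lipe, hormone-sensitive lipase, had 114 and 121 against 38.2 and 46.9. At the 6 promoters named here other than Plin1, each Control_4h library was above each Control_D0 library, as at 60.6% of all peaks.

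Preadipocyte, matrix and inflammatory genes gave mixed counts. Where 27.8% of all peaks rose, and 4.78% after centring, 6 of 11 preadipocyte and Wnt genes did (2 after centring). Among them was Wnt6, a signal that holds back adipogenesis, with 138 and 163 tags in Control_4h against 46.3 and 34.7 in Control_D0. Of 29 matrix genes 9 rose, a share near that of all peaks, with Tnc, tenascin C, at 417 and 334 tags in Control_4h against 122 and 135 in Control_D0. Of 17 inflammatory genes 8 rose, and 2 after centring. The highest of them was C3, the central complement protein, with 245 and 232 tags in Control_4h against 40.5 and 24.3 in Control_D0 (difference 2.88, SE 0.30, limma adjusted p = 9.27e-04).

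Cell cycle lists differed in their share of calls. Of 41 mitosis genes 17 rose (41.5%), of 42 replication genes 12 (28.6%) and of 22 G1/S regulators 5 (22.7%), where 27.8% of all peaks rose, with medians of 0.36, 0.29 and 0.40. Cdt1, which licenses replication origins, had 1181 and 1258 tags in Control_4h against 658 and 698 in Control_D0. Rrm2, a subunit of ribonucleotide reductase, had 883 and 1000 tags in Control_4h against 418 and 549 in Control_D0. Both remained called after centring, as 2 of the 42 replication genes did, against 1 mitosis gene and no G1/S regulator. Of all peaks 4.78% rose after centring. Birc5 (survivin) had 866 and 884 tags in Control_4h against 555 and 552 in Control_D0, and Ccnd1 (cyclin D1) had 2033 and 2372 against 1311 and 1525, both called before centring only, and Ccnd1 in 3 of 4 fits with a library left out. In shLuc RNA at 4 hours, 3 mitosis genes rose and 5 fell, where 20.7% of all transcripts rose and 21.6% fell. In the knockdown at day 0 none passed the test, where 0.606% of all transcripts rose and 0.901% fell.

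Housekeeping promoters had shares of calls below the 27.8% of all peaks called higher. The histone list is small, so its share rests on few genes. None of 26 genes of oxidative phosphorylation was called, with a median of 0.11 and a range of -0.024 to 0.34. With the replicate block 7 of them rose, where 59.2% of all peaks did. With the block and centring none rose and 7 fell, where 22.6% of all peaks rose and 12.8% fell. Cox4i1, a subunit of cytochrome c oxidase, had 1127 and 1195 tags in Control_4h against 930 and 1011 in Control_D0 (adjusted p = 0.0745 by limma). Of 25 genes of cytosolic ribosomal proteins 2 rose, Rpl10a and Rps19, again with a median of 0.11, and neither call held in any fit with a library left out. These are strong peaks, with a median of 840 and 1086 tags in the other 8 libraries. Of 10 histone genes 1 rose (H1f0, a linker histone, in 1 of 4 fits with a library left out), and of 23 genes of the integrated stress and unfolded protein responses 3 rose, with a median of 0.072. With the block and centring 1 of the 25 ribosomal genes rose and 8 fell, and 2 of the 23 stress genes rose and 8 fell. Over all peaks 22.6% rose and 12.8% fell in that fit. In RNA, 11 of those 23 fell in shKdm5ABC against shLuc cells at day 0, where 0.901% of all transcripts fell.

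Remaining lists lay around the 27.8% of all peaks called higher. Of 22 glycolysis and hypoxia genes 7 rose, with Egln3, a prolyl hydroxylase of HIF, at 848 and 864 tags in Control_4h against 449 and 454 in Control_D0. Of 20 genes of cholesterol synthesis 6 rose, of 16 CDK inhibitors and p53 targets 6, of 13 heat shock chaperones 3 and of 10 smooth muscle genes 2. Among markers of other cell types, 1 of 14 macrophage genes, 2 of 10 endothelial genes, 1 of 16 germline genes, 1 of 11 neuronal genes, 3 of 11 bone and cartilage genes and 0 of 10 skeletal muscle genes had a promoter peak. The bone and cartilage genes Runx2, Sox9 and Spp1 had differences of 0.069, 0.17 and 1.45, none called. Those called were Cd14, Flt1 and Egfl7 (held in 3, 2 and 1 of 4 fits with a library left out) and Stag3, a meiotic cohesin with 217 and 222 tags in Control_4h against 101 and 84.2 in Control_D0. No peak was matched to Ptprc or Pecam1, which define leukocytes and endothelium. Of the 18 preadipocyte and Wnt genes 11 had a peak, among them Pdgfra, Dlk1, Thy1 and Ly6a, and the rest had none.

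Interferon-stimulated effectors had more members below 0 than any other list. Of 26 with a peak, 13 were below 0, 2 rose, Rtp4 fell, and the median was -0.0057 against 0.28 over all peaks. Of all peaks, 91.9% were above 0, 27.8% rose and 0.00934% fell. With the replicate block 4 rose and 6 fell, where 59.2% of all peaks rose and 0.178% fell. After centring Mx2 and Usp18 joined Rtp4 as lower, where 0.121% of all peaks were. Ifit1 had 489 and 368 tags in Control_4h against 772 and 637 in Control_D0, a difference of -0.72 (SE 0.25) that missed the threshold at a limma adjusted p of 0.0535 and passed with the block (0.00706). Mx2, an antiviral GTPase, had 887 and 802 tags in Control_4h against 1055 and 1074 in Control_D0, and Ifi44 had 14.5 and 18.6 against 50.9 and 46.9. None of these pairs overlapped, where 0.579% of all peaks had lower tags without overlap. By contrast Ifi27, a mitochondrial protein induced by interferon, had 760 and 675 tags in Control_4h and 289 and 177 in Control_D0 (difference 1.66, adjusted p = 0.00175), and the call held with each library left out, whereas that at Gbp2 held in 2 of 4 such fits. RNA of this list was called lower for 21 of 26 members in shLuc cells at 4 hours against day 0 (21.6% of all transcripts fell) and for 14 of 26 in shKdm5ABC against shLuc cells at day 0 (0.901% of all transcripts). Of 20 genes of interferon signalling and sensing 4 rose, among them Irf9, the DNA-binding subunit of ISGF3, with 674 and 647 tags in Control_4h against 327.5 and 371 in Control_D0, a call kept in 3 of 4 fits with a library left out.

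**Figure D4:**
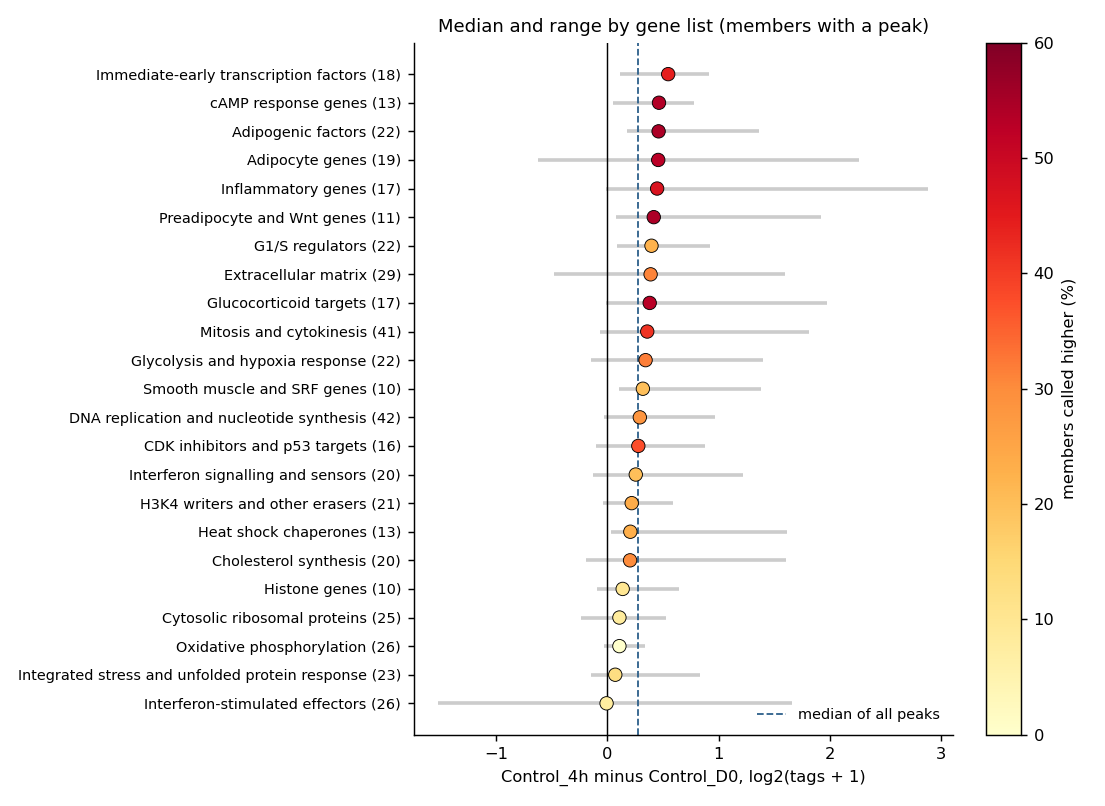
Median (point) and range (grey line) of the Control_4h minus Control_D0 difference over the members of each gene list with at least 10 peaks; the number in brackets counts members with a peak, and the colour gives the percent called higher. Immediate-early factors have the highest median (0.55) and interferon-stimulated effectors the lowest (-0.0057); the dashed line is the median of all peaks.

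RNA of the same genes offers a way to set the readings side by side. The alternating order was taken up partly for its match to RNA, so the values below are no separate test of it. Across 9954 genes with a peak and a tested transcript, the H3K4me3 difference had a Pearson r of -0.05 (Spearman rho -0.10) with the RNA difference of shLuc at 4 hours against day 0, the counterpart of the names as deposited. Its r was 0.38 (rho 0.26) with the RNA difference of shKdm5ABC against shLuc at day 0, the counterpart of the alternating order. With the knockdown difference at 4 hours and at day 2 the r was 0.37 and 0.37. These are correlations across genes, which are not independent replicates, and the RNA comparisons share libraries. The H3K4me3 difference of replicates 1 and 2 was also taken singly, against the same RNA difference averaged over its replicates. The r was then -0.063 and -0.028 for the time step and 0.36 and 0.37 for the day 0 knockdown.

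The same difference was read off for genes called in RNA. The 2260 genes whose RNA rose at 4 hours in shLuc cells had a median H3K4me3 difference of 0.25, and the 2327 whose RNA fell had 0.31, against 0.27 over all 9954 genes. H3K4me3 was called higher at 24.2% of the first group and 30.2% of the second, and at 26.2% of all 9954 genes. In the knockdown at day 0, 51 genes with higher RNA had a median H3K4me3 difference of 1.30, 45 of them were called higher and none was below 0. The 101 genes with lower RNA had a median of 0.067, 10 were called higher, and 39 were below 0 (38.6%, against 8.55% of all 9954). Of the 2606 genes with higher H3K4me3, 1.73% had higher RNA in the knockdown at day 0, against 0.512% of all joined genes, and 21.0% had higher RNA at 4 hours, against 22.7%. The RNA comparisons differ in size, with 82 against 2796 transcripts that rose. The count of 204 transcripts called in the knockdown at day 0 was 13 to 72 with a library left out and 1277 with the replicate block.

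Genes with the largest RNA changes illustrate both. Fgl2, a secreted prothrombinase-like protein, had the highest RNA rise at 4 hours (6.36) and 42.3 and 52.4 H3K4me3 tags in Control_4h against 9.26 and 19.1 in Control_D0. Vdr, the vitamin D receptor (RNA 5.58), had 931 and 839 tags in Control_4h against 466 and 503 in Control_D0. These 2 and the next 3 genes by RNA rise (Fosl1, Gfpt2 and Glul) were all called higher in H3K4me3, although Fgl2 kept the call in 2 and Glul in 3 of 4 fits with a library left out. Yet Zfp41 and Rerg, whose RNA fell by 4.47 and 4.00 at 4 hours, were also called higher, with differences of 0.74 and 1.14, and Kif21b, Cdc42ep3 and Runx1t1 (RNA -4.27 to -4.01) were between 0.18 and 0.42 and not called. Epas1, which encodes a hypoxia-inducible factor and rose in the knockdown at day 0 (RNA 2.06), had 637 and 606 tags in Control_4h against 251 and 280 in Control_D0. Angpt2, Col23a1, Aoc3 and Serpinb1a, the others at the top of that comparison, had differences of 2.06 to 3.35 and were called, although the call at Serpinb1a held in no fit with a library left out. At the bottom of it stood Trib3, I830012O16Rik, Ifi44, Ifit3 and Ifit1, with RNA differences of -2.87 to -2.45 and H3K4me3 differences of -1.52 to -0.14. None was called without the replicate block, with which Ifi44 (adjusted p = 0.0292) and Ifit1 (0.00706) fell.

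**Figure D5:**
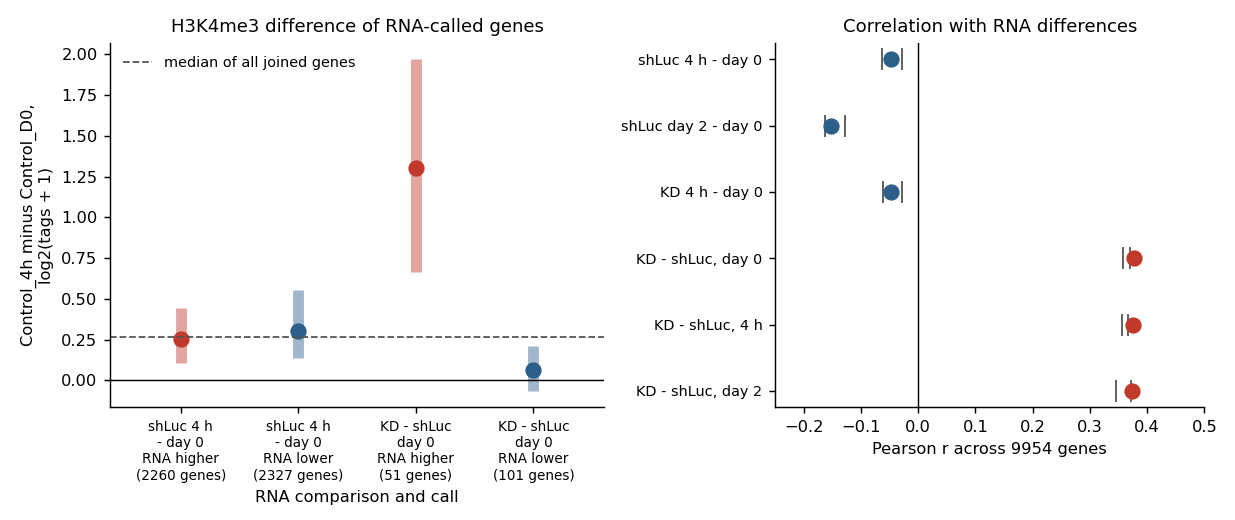
Left, median (point) and 25th to 75th percentile (bar) of the H3K4me3 difference for genes whose RNA was called higher (red) or lower (blue) in shLuc 4 hours minus day 0 or in shKdm5ABC minus shLuc (KD - shLuc) at day 0. Right, Pearson r across 9954 genes of the H3K4me3 difference with RNA differences, with ticks for each H3K4me3 replicate against the averaged RNA. The r is -0.05 for the 4 hour step and 0.38 for the knockdown at day 0.

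Levels were also matched for each column pair. The profile of each column pair around the mean of all pairs was correlated with that of each RNA group. Over all 720 ways to assign pairs to groups, the alternating order had the highest sum of r, and the order as named ranked 161. The alternating order had been taken up partly because it matched RNA best, so this match repeats that choice. Control_4h matched shKdm5ABC at day 0 best (r = 0.62), ahead of shLuc at day 0 (0.49) and shLuc at 4 hours (-0.13), and Control_D0 matched shLuc at day 0 best (0.55). These values describe the profiles, and the names in the table remain those deposited.

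Other column pairs show how the difference compares within the table. As named, the same time step in the knockdown is KDM5_KD_4h against KDM5_KD_D0, where 120 peaks rose (1.12%) and 3731 fell (34.9%). The step from Control_D0 to Control_4h exceeded it at 4990 peaks (46.6%) and was below it at 32 (0.299%), by limma's test of the difference between the steps. After centring the counts were 2765 (25.8%) and 1085 (10.1%). Lsp1, named for its high first value, had a difference of 3.60 between Control_4h and Control_D0 and of -3.95 between KDM5_KD_4h and KDM5_KD_D0. Lipe was among the few below, with 1.45 and 2.43.

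In the alternating order the 2 further pairs of columns are the knockdown against shLuc at 4 hours (KDM5_KD_D0 against Control_D2) and at day 2 (KDM5_KD_D2 against KDM5_KD_4h). KDM5_KD_D0 had 3541 peaks higher (33.1%) and 4 lower (0.0374%) than Control_D2, and KDM5_KD_D2 had 3167 higher (29.6%) and 6 lower (0.0561%) than KDM5_KD_4h. No peak differed between the Control_4h step and that of KDM5_KD_D0 by limma (199 at an unadjusted p under 0.05, where edgeR called 0 too), and 26 did with the replicate block. Against the step of KDM5_KD_D2, 2 peaks were higher (0.0187%) and 23 lower (0.215%). The lower ones include Rtp4 (-0.59 and 1.74), Ifit1 (-0.72 and 1.65) and Oasl2, a sensor protein of the OAS family (-0.29 and 1.81), the first value from Control_4h against Control_D0. Apod, a lipid-binding apolipoprotein, was higher in both steps (1.81 and 3.81). The 2 higher ones were Cldn15, a claudin (2.25 and 0.59), and a gene listed as Sep-09 (2.75 and 0.96). These 25 calls depended on which libraries entered the fit: 0 were left without Control_D0_1, Control_D0_2, Control_4h_2, KDM5_KD_D2_1 or KDM5_KD_D2_2, 1 without KDM5_KD_4h_1 and 13 without Control_4h_1, and 39 were called without KDM5_KD_4h_2.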

How the data were processed

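H3K4me3 ChIP was measured in 12 libraries, RNA in 12 and KDM5A ChIP in 6, and columns were joined to samples by name. ChIP values are signal: tags in merged peaks that the authors scaled to a common library total and deposited per library. STAR and HOMER on mm9 are listed for ChIP, and Bowtie2 (0.12.8 as written), Subread and DESeq2 for RNA, per the submitters' processing notes. The deposited RNA table gives a log2 level for each transcript, which the authors normalized for depth and length as its file name states, with size factors and pseudocount not given in the sources used here. Distances to the start site are a signed number of bp (unit score) that the authors deposited with each peak. In all 12 H3K4me3 columns every value is a whole multiple of that column's own smallest unit (100% to within 0.1 read), although an automatic check accepted only 4 of them. The recovered reads entered the depths and the edgeR alternatives, where edgeR called 2989 peaks with library totals and 495 with TMM.

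H3K4me3 was analysed as log2(tags + 1) in limma (version 3.58.1, under R 4.3.3), jointly over 12 libraries with a mean-variance trend, 6 residual and a median of 3.74 prior degrees of freedom, two-sided, adjusted by Benjamini-Hochberg. The fit is the same under both readings of the names. RNA was fitted likewise for 13534 transcripts with log2 of at least 1 in at least 2 libraries. The main fits hold no replicate term, so their calls and p ignore the pairing of replicate numbers. Replicate numbers were taken as pairs only in the fits with the replicate block. That block was added because every pair of groups correlated in its replicate deviation (0.504 to 0.79 over 15 pairs for H3K4me3, 0.381 to 0.657 for RNA). Spread between replicates exceeded counting error (chi-square per degree of freedom 10.6 in Control_D0 and 15.5 in Control_4h). KDM5A tags of a peak are the day 0 means of all KDM5A peaks that overlap it by at least 1 bp (bedtools 2.31.1). A gene's peak is the one with the highest mean tags, and 17253 of 17515 transcripts were named from RefSeq.

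The peaks, the 30 gene lists and the tests were chosen with earlier results of these data known, so counts over lists are descriptions. Named peaks are the Kdm5 genes, up to 4 called members with the smallest p of each list (the 2 with the highest tags where none was called), the 10 highest and 10 lowest of the 504 peaks called with both scalings, with a mean of at least 20 tags and no overlap of pairs (only Rtp4 was lower), and the 5 highest and 5 lowest RNA differences of each RNA comparison among transcripts that average log2 3 or more. Mx2, Usp18 and the members named for the difference between steps were chosen after their values were seen. Promoters were limited to genes with a single RefSeq entry, which passed over Mrvi1. The alternatives were another pseudocount, filter, scaling or tool, the block, only the compared libraries and each library left out. The fits were tested on simulated data. KDM5C ChIP and the input labelled as virus were not used here.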

Additional observations from a re-analysis of the deposited data

Results flagged for a closer look

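Differences between column pairs are listed here because the difference itself passed limma's test (Benjamini-Hochberg adjusted p under 0.05). The Control_4h minus Control_D0 difference departed from KDM5_KD_4h minus KDM5_KD_D0, the same step as named, at 5022 peaks. In the alternating order that second step is shLuc at day 2 minus shKdm5ABC at 4 hours, so the gap then compares no single time step between knockdown and shLuc cells. Among the 10 highest called peaks with at least 20 tags the gap between the 2 steps was 7.55 at Lsp1, 7.02 at Spon2, 6.04 at Aoc3, 5.87 at Gas7, 5.85 at Mrvi1, 5.83 at Xpnpep2, 5.68 at Igfbp6 and 5.32 at Masp1, on the log2(tags + 1) scale. It was 5.09 at both Mgst2 and Mt1, and 1.94 at Rtp4. Those 10 peaks were chosen for their Control_4h minus Control_D0 difference, which enters the gap, so large gaps follow in part from the choice. The tag share in peaks also runs in opposite directions in the 2 steps, higher in Control_4h (80.5% and 81.3%) than in Control_D0 (66.9% and 65.6%) and lower in KDM5_KD_4h (68.1% and 66.2%) than in KDM5_KD_D0 (83.2% and 80.7%), and its part in the gaps was not tested.

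The difference also departed from KDM5_KD_D2 minus KDM5_KD_4h at 25 peaks, as named day 2 minus 4 hours in shKdm5ABC and in the alternating order shKdm5ABC minus shLuc at day 2, with gaps of -2.33 at Rtp4 and -2.37 at Ifit1.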

How the results depend on the processing

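Of the 2981 peaks called between Control_4h and Control_D0, counts moved to 525 with each library centred, 495 with edgeR and TMM, 274 with only the compared libraries and 6350 with the replicate block; leaving out a library gave 847 to 2071. The median difference was 0.012 centred (also with the block and centring), -0.0023 with TMM and 0.29 to 0.30 with a library left out. The 25 peaks that differed from the KDM5_KD_D2 step were 0 with only the compared libraries, 621 with the replicate block, 697 with the replicate block and centring and 0 to 39 with a library left out. The 0 that differed from the KDM5_KD_D0 step were 26 with the replicate block, 16 with the replicate block and centring and 0 in each leave-out. The 5022 that differed from the KDM5_KD_4h step ranged from 4307 to 4897 with a library left out. For RNA, the 5724 calls at 4 hours were 4144 to 4405 with a library left out, and the 204 calls of the knockdown at day 0 were 11 with only the compared libraries, 1277 with the replicate block and 13 to 72 with a library left out. At the Mvd peak the difference was 0.28, and -0.0034 with TMM. Centring and TMM take out the tag share in peaks by construction, and fewer libraries leave less to estimate the spread; for the block the cause was not tested. A pseudocount of 10, a filter at 20 tags, no trend and edgeR with library totals kept the counts within 1.5 times. With 2 libraries a pair and few tags, the weakest peaks carry the largest errors.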
